A study of Mus musculus with 26 samples.

Results

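Heat shock proteins and chaperonins are the machinery that folds, refolds and disposes of other proteins, and their messenger RNAs were followed here in ribosomes of D2 receptor neurons of the mouse dorsal striatum. The genes were taken by symbol from the deposited count tables, namely all whose symbol begins with Hsp90, Hspa, Hspb, Hspd, Hspe, Hsph, Dnaja, Dnajb or Dnajc, those that begin with Cct and a number from 2 to 8, and Tcp1. This gave 84 of the 31980 genes that the tables share: 3 Hsp90, 11 Hsp70, 3 Hsp110, 2 mitochondrial chaperonin, 10 CCT (8 ring subunits, Cct6b and Cct8l1), 4 Dnaja, 13 Dnajb, 28 Dnajc and 8 small heat shock genes, and 2 genes (Hspbp1 and Hspbap1) that share only the letters of the name and encode partners of Hsp70 and Hspb1. The small heat shock genes were classed by symbol alone (Hspb and a number), and Hspb11 is counted among them for its symbol only.

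Hsp70 proteins clasp exposed stretches of an unfolded protein and let go in a cycle driven by ATP. J-domain proteins, the Dnaj genes, bring clients to Hsp70 and start that cycle, and Hsp110 proteins reset it by exchanging the nucleotide. Hsp90 acts late, on kinases and steroid receptors that are nearly folded, and chaperonins enclose a protein in a barrel: CCT in the cytosol, where it folds actin and tubulin, and Hspd1 with its lid Hspe1 in mitochondria. In neurons Hspa8 with the J proteins Dnajc5 and Dnajc6 keeps synaptic vesicle proteins in working order and strips clathrin from vesicles.

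The libraries were made by TRAP (translating ribosome affinity purification), in which an antibody against EGFP pulls down ribosomes that carry the fusion EGFP/Rpl10a. All mice were adults of the line Drd2-TRAP CP101, in which Drd2 regulatory sequence drives the fusion, on a background of FVB/N-Swiss Webster crossed to C57BL/6 for at least 9 generations. Drd2 is active in indirect-pathway medium spiny neurons and, as background, also in cholinergic interneurons, so the tagged ribosomes need not come from medium spiny neurons alone. The mice had self-administered cocaine or saline intravenously under long access, and the titles name cocaine mice as escalating or nonescalating and mark some groups as taken in withdrawal, of a length that the sources used here do not give. There were 9 nonescalating withdrawal, 5 saline withdrawal, 2 escalating, 4 nonescalating and 3 saline immunopurified libraries, and 3 libraries of total input RNA, 1 each from nonescalating, saline withdrawal and saline mice. The library numbers form 2 sets: set B holds 5 of the nonescalating withdrawal and 3 of the saline withdrawal libraries with the saline withdrawal input, and set A holds all the others. Nothing in the labels says that libraries come from separate animals, so p-values speak of the spread among the libraries, which may be technical.

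Heat shock genes are switched on through the heat shock element, alternating repeats of GAA and TTC set 2 bases apart, and the chaperones of the endoplasmic reticulum through the ER stress element, CCAAT and CCACG set 9 bases apart. Both were searched on both strands in the RefSeq promoter windows of build GRCm38.p6, 250 bases before to 50 after a gene's start, which 69 of the 84 genes have. Hsp90ab1, Hspa8 and Hsp90aa1 are among the genes without one. The sequences shown are examples that hold a match to either element, written 5′ to 3′ on the strand of the gene, with the matching bases in capitals. The first, at chr1:55088053-55088082 (plus strand), precedes Hspe1 and lies in an annotated exon within Hspd1, which is transcribed the other way. There a match of 3 repeats starting with TTC overlaps another starting with GAA. The second lies at chr2:34772020-34772048 (plus strand) in an annotated exon within Hspa5, the main Hsp70 of the endoplasmic reticulum (BiP). The third, at chr10:86705510-86705694 (minus strand), holds an element in each orientation upstream of Hsp90b1, the Hsp90 of that compartment, and the last, at chr14:118937682-118937931 (plus strand), precedes Dnajc3, a J protein of its lumen.
Hspe1 and Hspd1: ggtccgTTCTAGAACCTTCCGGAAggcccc
Hspa5: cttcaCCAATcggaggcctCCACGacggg
Hsp90b1: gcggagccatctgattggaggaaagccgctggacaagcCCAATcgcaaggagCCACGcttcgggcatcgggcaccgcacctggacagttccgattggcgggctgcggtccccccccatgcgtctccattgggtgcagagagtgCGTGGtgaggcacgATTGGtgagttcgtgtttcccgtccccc
Dnajc3: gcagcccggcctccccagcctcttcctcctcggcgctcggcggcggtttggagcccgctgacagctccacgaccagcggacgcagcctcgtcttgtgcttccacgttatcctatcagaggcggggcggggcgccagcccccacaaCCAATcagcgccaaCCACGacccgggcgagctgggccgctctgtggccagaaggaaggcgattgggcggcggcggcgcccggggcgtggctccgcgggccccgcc

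The ER stress element was present in the windows of 3 of the 69 genes (4.35%), namely Hspa5, Hsp90b1 and Dnajc3, and of 0.137% of all 27025 genes with a window. The heat shock element of 3 repeats, 13 bases in all and starting with GAA or TTC, was present in 4 of the 69 (5.80%), namely Dnajb6, Hspd1, Hspe1 and Hsph1, and in 0.662% of all genes. The windows of Hspd1 and Hspe1 overlap and hold the same site, which thus counts for both genes. Hsph1, an Hsp110, had its match TTCTGGAAAGTTC after the annotated start (chr5:149636288-149636300, minus strand). The 8-base GAANNTTC, which every 13-base match contains, was in 23.2% of the 69 genes and 9.04% of all. Of the other motifs searched, GGGCGG was in 73.9% of the 69 genes against 38.2% of all, CCAAT in 43.5% against 41.1%, and TATAA in 21.7% against 28.0%; a CCAAT can be part of an ER stress element. A match is a run of letters and was not shown to be used in these neurons.

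Each immunopurified library held 3279457 to 19122303 gene counts, and each input 5016587 to 11549493. The purification held the label: the 6 markers of D2 neurons summed to 1952 to 14385 CPM (gene counts scaled for library size, with TMM factors) in the 12 immunopurified libraries from conditions that have an input, against 1895 to 2012 CPM in inputs, and 5 of the 6 were called higher, although the lowest purified sum lay within the range of the inputs. The 6 markers of D1 neurons summed to 52.5 to 120.1 against 503 to 587 CPM, the 9 astrocyte markers to 168 to 391 against 2035 to 3229 CPM, and the 9 oligodendrocyte markers to 161 to 377 against 1589 to 2327 CPM. The 13 endothelial and mural markers went the other way, at 297 to 10046 against 138 to 647 CPM. Reads that aligned uniquely but missed genes made up 21.2% to 70.7% of immunopurified libraries and 27.3% to 31.6% of inputs.

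As a family the 84 genes took a small part of the reads. They held 0.689% to 1.11% of gene counts in nonescalating withdrawal libraries (median 0.896%), 0.519% to 1.02% in saline withdrawal (0.803%), 0.670% and 0.982% in the 2 escalating libraries, 0.772% to 1.06% in nonescalating (0.916%), 0.723% to 0.935% in saline (0.902%) and 0.811% to 1.01% in inputs (0.863%). The lowest share was that of saline withdrawal set A replicate 1, the library with the most reads outside genes. The ranges of all groups overlapped.

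A single Hsp90 dominated. Per kilobase of exon, Hsp90ab1, the constitutive cytosolic Hsp90 (chromosome 17, 45567775 to 45573271 of GRCm38), had a median of 801 CPM per kb over the 23 immunopurified libraries and took a median of 27.0% of the reads of the 84 genes. Hspa8, the constitutive cytosolic Hsp70, followed at 228 CPM per kb, then Hsph1 at 110.1, the stress-responsive Hsp90aa1 at 108, the Hsp110 Hspa4 at 64.4, Hspd1 at 61.7 and Hsp90b1 at 50.7 CPM per kb. Hsph1 and Hsp90aa1 could not be ordered, with ranges of 37.6 to 192 and 34.0 to 206 CPM per kb. The inducible Hsp70 genes were near the floor. Hspa1a had 0.805 to 5.53 CPM and Hspa1b 0 to 1.25 CPM in immunopurified libraries, and since the 2 genes are near-identical copies, reads that match both may have been dropped or split.

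Subunits of the CCT ring, which stand in equal numbers in the assembled barrel, did not have equal ribosome-bound messenger RNA per length. Over the 23 immunopurified libraries the medians were 38.6 CPM per kb for Cct2, 35.7 for Cct6a, 26.5 for Cct5, 17.7 for Cct7, 16.9 for Tcp1, 13.8 for Cct8, 8.83 for Cct4 and 6.58 for Cct3. Cct2 (17.5 to 61.7 CPM per kb) did not overlap with Cct3 (at most 11.8), whereas neighbours in the order did. The lengths are those of all annotated exons, so a gene with long unused exons reads low. By group, Cct2 had medians of 100.5 CPM in nonescalating withdrawal, 83.7 in saline withdrawal, 83.1 in escalating, 122 in nonescalating and 119 in saline libraries, and 133 in inputs, and Tcp1 of 86.4 CPM in nonescalating withdrawal, 62.2 in saline withdrawal, 98.2 in escalating, 83.5 in nonescalating and 81.8 in saline libraries, and 95.3 in inputs. The immunopurified groups overlapped for both.

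**Figure D1:**
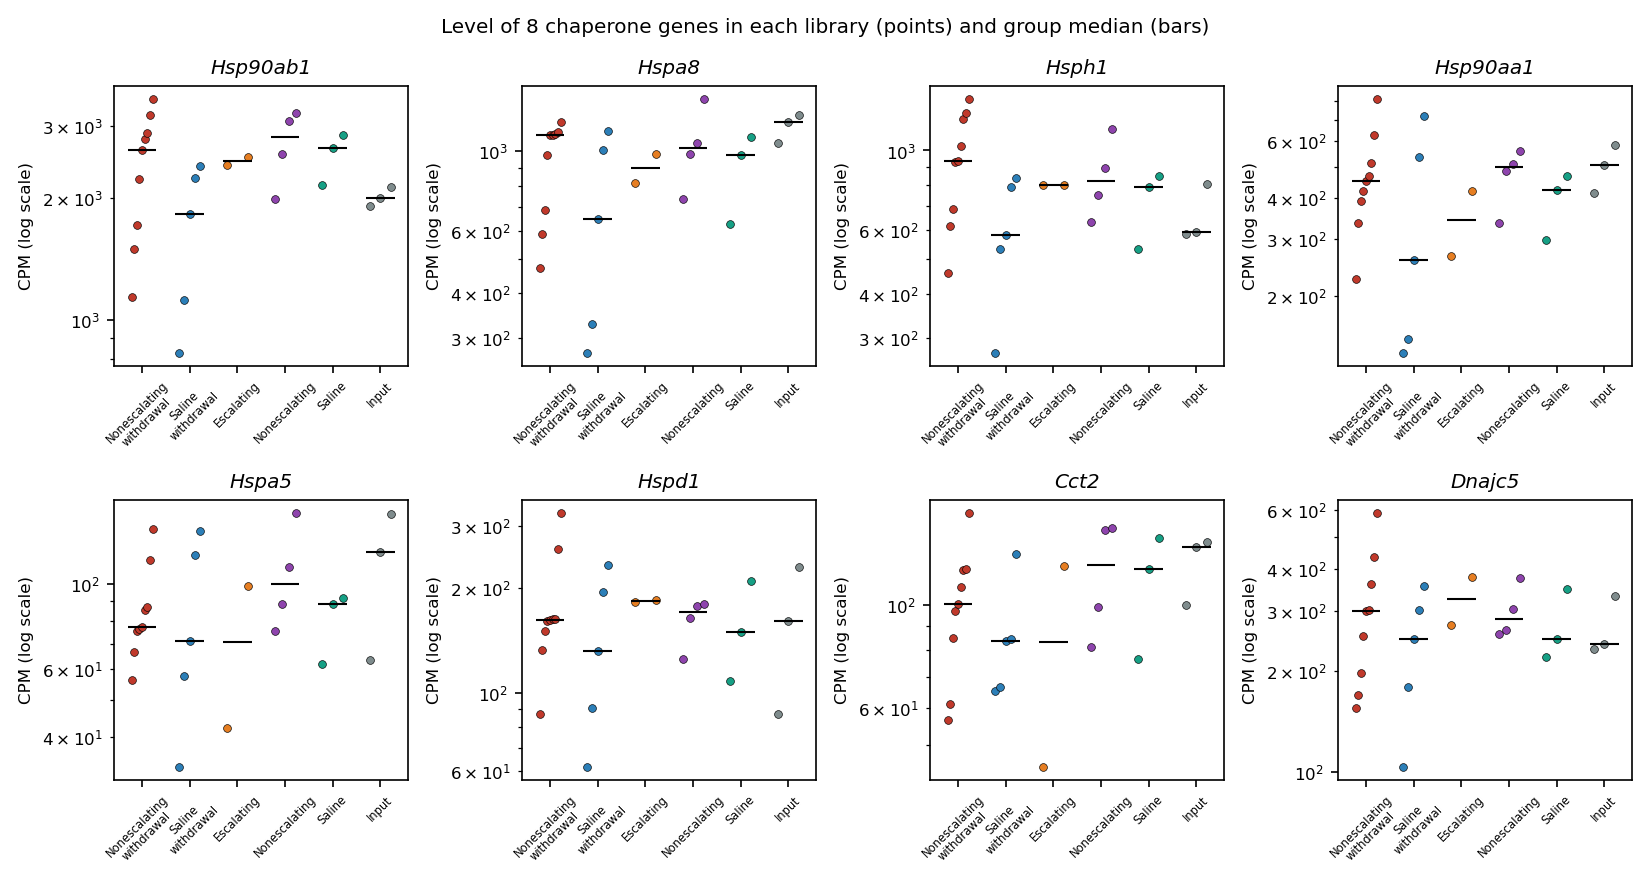
Level of 8 chaperone genes (CPM, log axis) in each library, by group, with bars at group medians. Hsp90ab1 reached 3504 CPM in a nonescalating withdrawal library, and ranges of immunopurified groups overlap except for Hsp90ab1 between escalating and saline withdrawal and for Hspd1 between escalating and nonescalating.

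Hsp90ab1 was at 1137 CPM at the lowest, 2617 at the median and 3504 at the highest of the 9 nonescalating withdrawal libraries, at 829.3, 1821, 2238, 2397 and 1118 CPM in the saline withdrawal libraries, at 2401 and 2522 CPM in the escalating libraries, at 3235, 3088, 1983 and 2556 CPM in the nonescalating libraries and at 2149.7, 2846 and 2647 CPM in the saline libraries. The inputs held 2001, 1907 and 2119.6 CPM. Saline withdrawal had the 2 libraries lowest in Hsp90ab1 of all 23, replicate 1 of set A and replicate 3 of set B, and both escalating libraries lay above all 5 saline withdrawal ones, at 2401 against 2397 CPM where closest. The other immunopurified groups overlapped. Hspa8 was at 472 CPM at the lowest, 1112 at the median and 1206 at the highest of the 9 nonescalating withdrawal libraries, at 328, 645, 1012, 1139 and 273 CPM in the saline withdrawal libraries, at 814 and 982 CPM in the escalating libraries, at 1058, 1405, 737 and 987 CPM in the nonescalating libraries and at 627, 1094 and 978 CPM in the saline libraries, and at 1055, 1211 and 1263 CPM in inputs. The same 2 saline withdrawal libraries were again the lowest, and the immunopurified groups overlapped. Hsph1 had medians of 936 CPM in nonescalating withdrawal, 584 in saline withdrawal, 801 in escalating, 823 in nonescalating and 793 in saline libraries, and 592 in inputs. Hsp90aa1 had medians of 453 CPM in nonescalating withdrawal, 258 in saline withdrawal, 344 in escalating, 499 in nonescalating and 426 in saline libraries, and 508 in inputs.

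Chaperones of the endoplasmic reticulum were lower. Hspa5 had medians of 77.4 CPM in nonescalating withdrawal, 70.9 in saline withdrawal, 70.5 in escalating, 99.7 in nonescalating and 88.9 in saline libraries, and 121 in inputs, and Hsp90b1 of 207 CPM in nonescalating withdrawal, 182 in saline withdrawal, 186 in escalating, 205 in nonescalating and 216 in saline libraries, and 279.7 in inputs. Both overlapped between the immunopurified groups. In mitochondria, Hspd1 had medians of 162 CPM in nonescalating withdrawal, 132 in saline withdrawal, 184 in escalating, 171 in nonescalating and 149.7 in saline libraries, and 161 in inputs. Its lid Hspe1, whose exons overlap those of Hspd1 on the other strand by 112 bases, had 32.4 CPM in nonescalating withdrawal, 24.1 in saline withdrawal, 35.3 in escalating, 37.0 in nonescalating and 25.9 in saline libraries, and 26.9 in inputs. Hspa9, the mitochondrial Hsp70, had 144 CPM in nonescalating withdrawal, 122 in saline withdrawal, 137 in escalating, 149 in nonescalating and 167 in saline libraries, and 133 in inputs. Hspd1 was higher in both escalating libraries (182 and 185 CPM) than in any nonescalating library (at most 179.8 CPM), and the immunopurified groups otherwise overlapped. With so few libraries such a separation can arise by chance. The group medians of each of these genes differed by less than the range within the nonescalating withdrawal group.

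Among J proteins, Dnaja1, a partner of Hspa8, had medians of 124 CPM in nonescalating withdrawal, 83.0 in saline withdrawal, 105 in escalating, 133 in nonescalating and 125 in saline libraries, and 153 in inputs, and Dnajb1, its stress-responsive counterpart, of 42.8 CPM in nonescalating withdrawal, 26.8 in saline withdrawal, 46.5 in escalating, 38.6 in nonescalating and 44.5 in saline libraries, and 36.4 in inputs. Dnajc5, the cysteine string protein of synaptic vesicles, had 300.3 CPM in nonescalating withdrawal, 248 in saline withdrawal, 327 in escalating, 285 in nonescalating and 248 in saline libraries, and 239.6 in inputs. Dnajc6, the auxilin that recruits Hspa8 to clathrin coats, had 215 CPM in nonescalating withdrawal, 129 in saline withdrawal, 184 in escalating, 241 in nonescalating and 155 in saline libraries, and 236 in inputs. These too overlapped between the immunopurified groups.

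Few chaperones were called between purified and input RNA. Of 73 genes with enough counts in the comparison of 12 immunopurified libraries with 3 inputs, 2 were called at an adjusted p under 0.05 (edgeR quasi-likelihood test), both lower, beside 6.85% of all 16426 genes tested (3.35% higher and 3.51% lower). The count of 2 is below that background, but the comparison misses most changes. In counts simulated for it, 3% of log2 changes of 1 and 41% of log2 changes of 2 were called. An unadjusted p under 0.05 was found for 15 of the 73 (20.5%), against 25.6% of all genes. The 73 had 36 positive fold changes and a median log2 fold change of -0.07, against 0.17 over all genes. In these bulk samples a lower level from fewer cells and one from less RNA per cell cannot be told apart. Of the pathway's other genes, Hsf1, the master transcription factor of the heat shock response, was called higher (log2 fold change 1.34 ± 0.25, SE, adjusted p = 0.00538), as 1 of 5 genes of heat shock factors and their binding protein. Unc45a, an Hsp90 cochaperone for myosin, was called higher as 1 of 15 Hsp90 cochaperones (1.95 ± 0.44, adjusted p = 0.0153). None of 12 Hsp70 cochaperones, 16 endoplasmic reticulum partners, 14 prefoldin and CCT partners or 8 mitochondrial partners was called by this test.

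Both genes called lower are Dnajc genes. Dnajc18, a J protein of the endoplasmic reticulum membrane (chromosome 18, 35671103 to 35708414), was at 72.5 CPM at the lowest, 114 at the median and 165 at the highest of the 12 immunopurified libraries, against 171, 328 and 163 CPM in the nonescalating, saline withdrawal and saline inputs. The saline withdrawal and nonescalating inputs lay above all 12 immunopurified libraries and the saline input just below the highest of them. The log2 fold change was -0.84 ± 0.22 (SE, adjusted p = 0.0292). The call was lost without any 1 of the 3 inputs (-0.50, adjusted p = 0.219, without the saline withdrawal input, and -0.99 and -1.02, adjusted p = 0.0502 and 0.0668, without the saline and the nonescalating one) and without saline withdrawal set B replicate 1 (0.0606), set B replicate 2 (0.0589) or saline replicate 4 (0.0562).

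Dnajc27, a small GTPase of the Rab type with a J domain (chromosome 12, 4082583 to 4110606), was at 40.2 CPM at the lowest, 71.8 at the median and 123 at the highest of the 12 immunopurified libraries, against 196, 149 and 88.6 CPM in the nonescalating, saline withdrawal and saline inputs. The nonescalating and saline withdrawal inputs lay above all 12 immunopurified libraries and the saline input among them. The log2 fold change was -0.91 ± 0.24 (SE, adjusted p = 0.0314). This call was lost without the saline withdrawal input (0.0630), the nonescalating input (-0.50, adjusted p = 0.300), saline withdrawal set B replicate 1 (0.0563) or replicate 2 (0.0552), or nonescalating replicate 4 (0.0546). Exons of neither gene overlap another gene in the annotation.

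The next gene in the lower direction, Cct6a, a subunit of the CCT ring, was at 58.1 CPM at the lowest, 116 at the median and 209.6 at the highest of the 12 immunopurified libraries, against 121, 339 and 222 CPM in the nonescalating, saline withdrawal and saline inputs, with a log2 fold change of -0.74 ± 0.25 (SE, adjusted p = 0.0779). Of the 8 ring subunits 5 were negative and 3 positive. Cct8 was at -0.75 ± 0.26 and Cct5 at 0.55 ± 0.42. Cct6a shares exon bases with Psph on the other strand and Snora15 on its own, and Cct8 with Usp16 on the other strand, and reads that fit 2 genes made up 8.61% to 12.8% of inputs against 0.942% to 2.85% of immunopurified libraries. The part of ambiguous reads in these values was not tested.

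No chaperone was called higher by this test. Dnajc14, a J protein of the endoplasmic reticulum that handles receptors, was at 22.3 CPM at the lowest, 40.5 at the median and 46.9 at the highest of the 12 immunopurified libraries, against 22.6, 16.1 and 18.4 CPM in the nonescalating, saline withdrawal and saline inputs, with a log2 fold change of 0.99 ± 0.30 (SE, adjusted p = 0.0591). It passed without nonescalating replicate 2 (adjusted p = 0.0369), with the share of reads outside genes as a covariate (0.0394), without the libraries above 50% outside genes (0.0446) and by DESeq2 (0.00595). All inputs but the nonescalating one lay below every immunopurified library, and the gene's exons overlap those of Ormdl2, Sarnp and Tmem198b. Dnajc17, which is linked to splicing and overlaps Zfyve19, was at 0.852 CPM at the lowest, 15.1 at the median and 32.9 at the highest of the 12 immunopurified libraries, against 4.62, 0 and 12.2 CPM in the nonescalating, saline withdrawal and saline inputs (2.10 ± 0.82, adjusted p = 0.127). Hspb1, the small heat shock protein Hsp27, was at 0 CPM at the lowest, 5.73 at the median and 17.6 at the highest of the 12 immunopurified libraries, against 0, 0 and 0.928 CPM in the nonescalating, saline withdrawal and saline inputs. It had 6 reads in the saline input and 0 in the others, and the fold change (4.13 ± 1.65, adjusted p = 0.133) depends on so few reads. DESeq2 called 9 of the 73 genes, 4 higher and 5 lower, where it called 18% of all genes, 11.2% higher and 6.73% lower: Dnajc14, Dnajc17 and Hspb1 were among those higher and Cct6a among those lower.

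**Figure D2:**
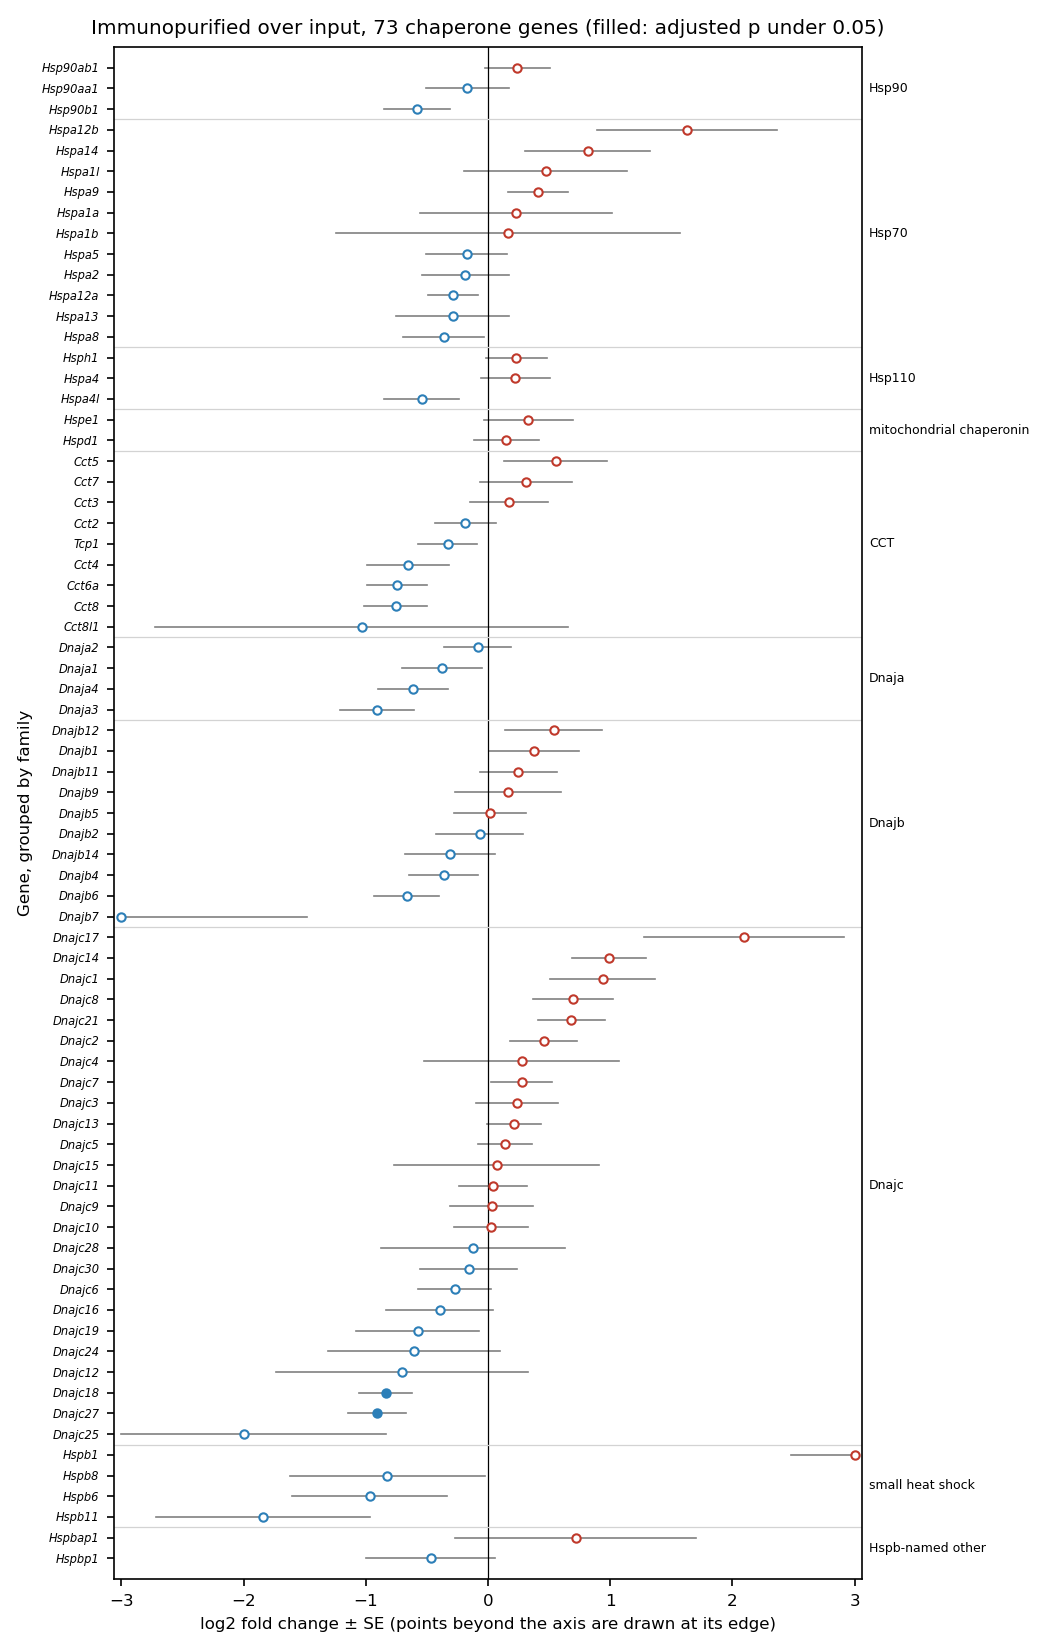
Log2 fold change of immunopurified libraries over inputs, with its SE, for 73 chaperone genes grouped by family. Filled points are the 2 called genes, Dnajc18 and Dnajc27, and the open points lie on both sides of 0 in most families.

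Intake and withdrawal were compared in one model of all 23 immunopurified libraries, with library set as a term, and 76 of the 84 genes had enough counts for it. Dnajb8, Dnajc22 and Dnajc5g had no read in any library, and Cct6b, Dnajc5b, Hspb3, Hspb7 and Hspb9 had 5 to 50 reads in all 26. In none of the 6 group comparisons, nor in the interaction of intake with withdrawal, was any of the 76 called, by edgeR, DESeq2 or limma voom, and edgeR called 0% of 16912 genes. By edgeR the absence of calls is thus not particular to chaperones. How many of all genes DESeq2 and limma voom called is not given here. The comparisons share groups, and their values are not independent. Genes are named below for their low p values, which favours genes whose groups do not overlap. How many of all genes separate the same groups is not given here, so no weight rests on a separation. Saline withdrawal against saline and nonescalating withdrawal against nonescalating also depend on the library set, since no library without withdrawal belongs to set B.

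Nonescalating withdrawal against saline withdrawal, the comparison with most libraries, sets the ribosome-bound messages of cocaine and saline mice in withdrawal side by side. Of 76 genes, 59 (77.6%) had a positive fold change, against 50.9% of all genes, with a median log2 fold change of 0.27 against 0.01. Positive were all 9 CCT genes tested, all 3 Hsp90, all 3 Hsp110 and both mitochondrial chaperonin genes, but 3 of 8 chaperones of the endoplasmic reticulum. Beside them, all 6 D2 neuron markers (median 0.67) and all 8 general neuron markers (0.62) were positive and all 13 endothelial and mural markers negative (-1.02), none called, and reads outside genes averaged 40.7 ± 13.2% in nonescalating withdrawal and 47.5 ± 15.3% in saline withdrawal (SD, n = 9 and 5, exact permutation p = 0.396, two-sided). With the share of reads outside genes as a covariate the median of the 76 genes was 0.11 and 53 were positive. Within set A alone the median was 0.49, with 54 of 77 positive, and within set B alone 0.14, with 49 of 70 positive. The only saline withdrawal libraries of set A had 52.7% and 70.7% of reads outside genes, against 28.7% to 60.7% in nonescalating withdrawal there.

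Only 4 of the 76 genes (5.26%, against 5.22% of all genes) had an unadjusted p under 0.05 there, and none passed adjustment. Cct6a was at 79.1 CPM at the lowest, 175 at the median and 296 at the highest of the 9 nonescalating withdrawal libraries, against 58.1, 75.6, 156, 209.6 and 109 CPM in the saline withdrawal libraries. The groups overlapped over most of their range, and the log2 fold change was 0.59 ± 0.21 (SE, adjusted p = 0.749). Dnajb12, a J protein of the endoplasmic reticulum membrane, was at 12.97 CPM at the lowest, 22.03 at the median and 45.7 at the highest of the 9 nonescalating withdrawal libraries, against 20.1, 15.6, 11.5, 11.97 and 15.04 CPM in the saline withdrawal libraries. Its highest values were those of replicates 2, 3 and 4 of set A (45.7, 40.3 and 43.1 CPM), and the log2 fold change was 0.76 ± 0.27 (SE, adjusted p = 0.749).

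Hsph1, the Hsp110 that resets Hsp70, was at 456 CPM at the lowest, 936 at the median and 1393 at the highest of the 9 nonescalating withdrawal libraries, against 273, 532, 791, 838 and 584 CPM in the saline withdrawal libraries. Of the nonescalating withdrawal libraries, 6 exceeded the highest saline withdrawal library, and the log2 fold change was 0.69 ± 0.29 (SE, adjusted p = 0.749). Fitted within a library set, it came to 1.33 ± 0.45 for A and 0.28 ± 0.22 for B. The only saline withdrawal libraries of set A had 52.7% and 70.7% of reads outside genes. Its nonescalating withdrawal libraries had 28.7%, 30.4%, 30.9% and 60.7%. The part of that imbalance in the set A value was not tested. Dnaja2, another partner of Hspa8, was at 0.56 ± 0.27. In the other direction the lowest p values were those of Hspb8, a small heat shock protein that works with Bag3 in autophagy, at 0.537 CPM at the lowest, 1.67 at the median and 6.88 at the highest of the 9 nonescalating withdrawal libraries, against 11.3, 5.70, 6.55, 1.65 and 5.96 CPM in the saline withdrawal libraries (-1.36 ± 0.66), and of Dnajc1 of the endoplasmic reticulum membrane (-0.55 ± 0.33), with adjusted p = 0.749 for each. Dnajb7, a J protein of low level here, had reads in 2 of the 9 nonescalating withdrawal libraries, against all 5 saline withdrawal libraries, with at most 1.35 and 3.63 CPM.

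**Figure D3:**
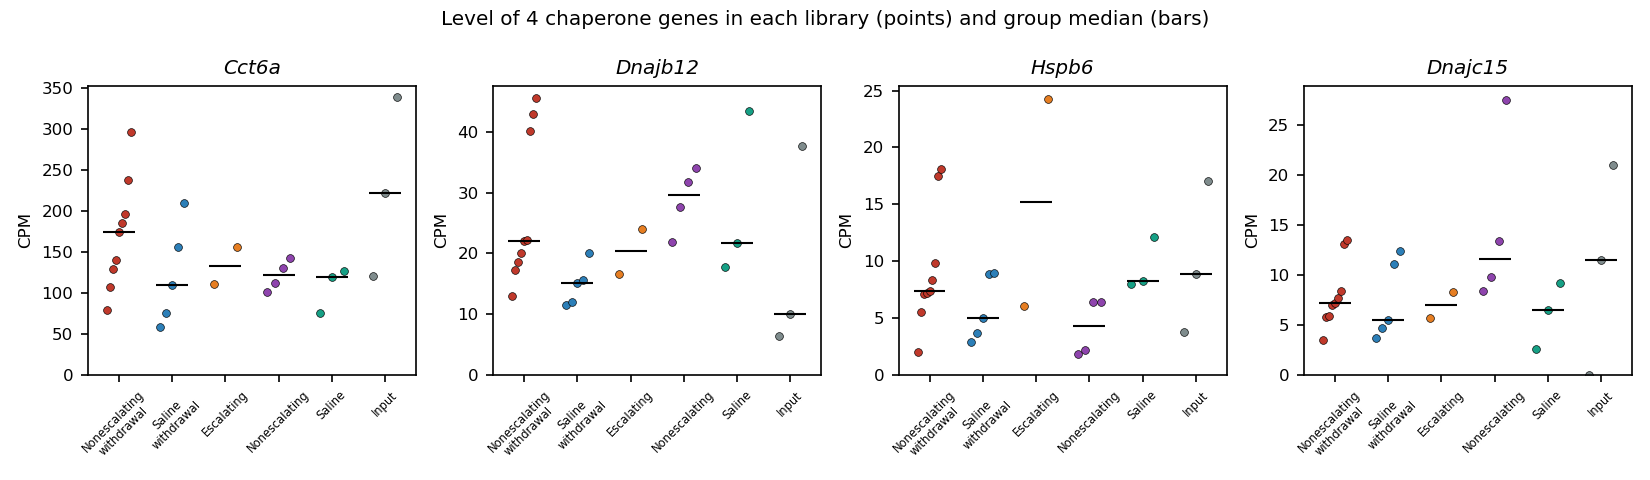
Level of Cct6a, Dnajb12, Hspb6 and Dnajc15 (CPM, linear axis from 0) in each library, by group, with bars at group medians. Nonescalating withdrawal libraries reach 296 CPM for Cct6a and 45.7 CPM for Dnajb12 but overlap with saline withdrawal, and the 4 nonescalating libraries lie below the 3 saline libraries for Hspb6.

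Without withdrawal, nonescalating against saline gave 1 of 76 genes with an unadjusted p under 0.05 (1.32%, against 2.11% of all). This was Dnajc15, a J protein of the inner mitochondrial membrane, at 27.5, 13.3, 8.40 and 9.77 CPM in nonescalating libraries against 2.61, 9.14 and 6.44 CPM in saline libraries. Nonescalating replicate 1 stood highest and replicate 3 overlapped with the saline libraries, and the log2 fold change was 1.29 ± 0.59 (SE, adjusted p = 1). Hspb6, the small heat shock protein Hsp20, was at 1.79, 2.14, 6.41 and 6.37 CPM in nonescalating libraries against 12.1, 8.01 and 8.23 CPM in saline libraries. The 2 groups did not overlap, but the log2 fold change of -1.18 ± 0.60 (SE, adjusted p = 1) was not called. With so few libraries some of many genes separate by chance, and this gene was picked for its low p. Of the other genes with low p values, Dnajc9, a histone chaperone, was at 0.53 ± 0.42 (0.13 without nonescalating replicate 1) and Hspa12a, an atypical Hsp70, at 0.39 ± 0.27, while Hspa1b and Hspb2 had at most 1.25 CPM in either group.

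Escalating against saline rested on 2 escalating libraries, and the median SE of a chaperone's log2 fold change was 0.49, so differences of that size were not detectable. Much larger ones would mostly be missed too. In counts simulated for this comparison, 0% of log2 changes of 1 and 11% of log2 changes of 2 were called. None of the 76 genes (0%, against 3.06% of all) had an unadjusted p under 0.05. Dnajb9, a J protein that restrains the stress sensor of the endoplasmic reticulum, was at 37.6 and 9.10 CPM in escalating libraries against 9.25, 11.9 and 15.8 CPM in saline libraries, with a log2 fold change of 0.92 ± 0.54 (SE, adjusted p = 1). The first escalating library lay above all others and the second below the saline ones, and without the first the fold change was -0.44. Dnajc8, a splicing-related J protein, was at 105 and 68.1 against 50.1, 60.8 and 55.6 CPM (0.64 ± 0.37), and Dnajc13, which acts on endosomes, at 56.0 and 80.9 against 99.5, 96.5 and 103 CPM (-0.54 ± 0.31). Both were outside the range of the saline libraries in the 2 escalating libraries. Dnajb3, Dnajb7 and Dnajb13 were also among the lowest p values, at 2.59 CPM or less.

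Escalating against nonescalating gave 1 gene with an unadjusted p under 0.05, Hspb6, at 24.3 and 6.03 CPM in escalating libraries against 1.79, 2.14, 6.41 and 6.37 CPM in nonescalating libraries (1.86 ± 0.65, adjusted p = 1). The first escalating library was far above the other, which lay within the nonescalating range. Hspa2, an Hsp70 best known from testis, was at 25.1 and 29.2 against 30.1, 69.5, 54.7 and 48.8 CPM (-0.90 ± 0.54), and Hspa4 at 219 and 265 against 427, 397, 277 and 356 CPM (-0.59 ± 0.36). For both genes the 2 escalating libraries lay below all nonescalating ones. Dnajc19, of the mitochondrial import motor, was at 8.66 and 13.9 against 4.98, 7.05, 8.54 and 4.67 CPM (0.84 ± 0.49), and Dnajc25 at 7.36 and 1.38 against 0.0997, 0.503, 0.427 and 2.76 CPM (2.18 ± 1.41, or 0.52 without escalating replicate 1 and 3.65 without nonescalating replicate 4), with adjusted p = 1 for each. Dnajb13, a J protein known from cilia and sperm tails, had no read in either escalating library, against 0, 0, 0.997 and 0.637 CPM in nonescalating libraries.

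Withdrawal itself was compared within each intake. For saline withdrawal against saline, 23 of 76 genes were positive (30.3%, against 53.8% of all) with a median log2 fold change of -0.21 against 0.08, and without the term for library set 37 were positive with a median of -0.04. RLE scaling moved the median of all genes in this comparison by 0.13, to 0.22, and that of the 76 genes to -0.10. Beside them, all 6 D2 neuron markers (median -0.63) and all 8 general neuron markers (-0.61) were negative and all 13 endothelial and mural markers positive (1.38), none called, and reads outside genes averaged 47.5 ± 15.3% in saline withdrawal and 39.0 ± 10.7% in saline (SD, n = 5 and 3, exact permutation p = 0.5, two-sided). Without the libraries above 50% outside genes the median of the chaperones was -0.05, with 35 of 74 positive. Dnajc2, which with Hspa14 forms a chaperone on the ribosome, was at 23.04, 34.2, 64.5, 82.7 and 113 CPM in saline withdrawal libraries against 40.9, 71.9 and 65.2 CPM in saline libraries (-0.84 ± 0.36, adjusted p = 0.782). The 2 set A libraries were below all saline libraries and the set B libraries within or above the saline range, and without the set term the log2 fold change was 0.10. Hspa14 was at 52.1, 25.0, 17.8, 17.5 and 9.37 against 17.7, 11.9 and 21.7 CPM (0.70 ± 0.48, or 0.12 without saline withdrawal set A replicate 1).

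Dnajc12, which binds aromatic amino acid hydroxylases, had a log2 fold change of -2.17 ± 0.99 and Hspd1 of -0.71 ± 0.36 in saline withdrawal against saline, and without the set term these were -0.27 and -0.13. Dnajc3 (0.90 ± 0.48) and Dnajc1 (0.63 ± 0.48) were positive, and all 4 had adjusted p = 0.782. For nonescalating withdrawal against nonescalating, 27 of 76 genes were positive (35.5%, against 55.8% of all) with a median log2 fold change of -0.14 against 0.09, and without the term for library set 44 were positive with a median of 0.09. Reads outside genes averaged 40.7 ± 13.2% in nonescalating withdrawal and 31.9 ± 11.1% in nonescalating libraries (SD, n = 9 and 4, exact permutation p = 0.263, two-sided), and without the libraries above 50% the median was 0.02, with 40 of 74 positive. Hspb6 was at 2.03 CPM at the lowest, 7.40 at the median and 18.1 at the highest of the 9 nonescalating withdrawal libraries, against 1.79, 2.14, 6.41 and 6.37 CPM in the nonescalating libraries. Of these 9 libraries, all but 2 exceeded every nonescalating library, and the log2 fold change was 1.64 ± 0.55 (SE, adjusted p = 0.926). Dnajc15 went the other way (-1.11 ± 0.49), at 3.48 to 13.5 CPM against 8.40 to 27.5 CPM, as did Hspa12a (-0.58 ± 0.23) and Dnajc2 (-0.58 ± 0.29). Dnajc10, a reductase of the endoplasmic reticulum, was at 0.41 ± 0.23, and Hspb2 had at most 1.80 CPM.

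The interaction asks whether the difference between nonescalating and saline mice itself differed with withdrawal. Hspb6 had the lowest p among the 76 genes, with an interaction of 1.83 ± 0.75 (SE, adjusted p = 1): 0.65 ± 0.45 in withdrawal against -1.18 ± 0.60 without it. Hspb6 shares exon bases with Lin37 and Proser3 on the other strand and Gm38670 on its own. Dnajb12 (0.70 ± 0.45, or 0.23 without saline replicate 3), Dnajc15 (-1.13 ± 0.71), Hspa2 (-0.62 ± 0.58) and Dnaja3, a mitochondrial J protein (-0.48 ± 0.41), followed with adjusted p = 1 each. Hspb2 was also among the lowest p values but had 82 reads in all 26 libraries. The interaction was called for none of the 76 genes.

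Many chaperones varied with one property of the libraries, the share of reads that aligned uniquely but outside genes, fitted across the 23 immunopurified libraries beside group and library set. Of 76 genes, 43 were called, 35 falling and 8 rising with that share, beside 47.8% of all 16912 genes (22.8% falling and 25.1% rising). The chaperones thus were called about as often as other genes, but mostly in one direction: 55 of 76 coefficients were negative, with a median of -0.19 log2 units per 10 percentage points against 0.02 for all genes. No difference in this share between groups was called (exact permutation, two-sided, adjusted p = 0.72 to 0.933 over 6 comparisons). Comparisons among the groups without withdrawal have too few libraries to reach p under 0.05 in this test. Group means differed by up to 8.86 percentage points, between nonescalating withdrawal and nonescalating libraries, so the test does not show that the groups are alike in this share. Markers moved along with it: all 13 endothelial and mural markers rose (median 0.999), all 6 D2 neuron markers fell (-0.54) and 7 of 8 general neuron markers fell. Their part in the chaperones' values was not tested.

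How many chaperones were called depended on the libraries and covariates used. Leaving out each library in turn gave 39 to 45 called genes, and set A alone gave 32 (27 falling and 5 rising, beside 31.1% of all genes, 13.6% falling and 17.6% rising). Within the 8 libraries of set B 7 were called, 5 falling and 2 rising, beside 9.47% of all genes, 1.43% falling and 8.04% rising, with 56 of 70 coefficients negative. Without the 5 libraries above 50% outside genes, a choice made after seeing the data, 19 were called, 18 falling and 1 rising, beside 12% of all genes, 4.88% falling and 7.15% rising, and 55 of 74 coefficients were negative. RLE scaling gave 27 falling and 11 rising, beside 46% of all genes, 16.8% falling and 29.2% rising, so that rising genes made up 63.5% of all calls there and 52.4% under TMM scaling. With the percentage of ambiguous reads as a second covariate no gene of the 76, and none of all genes, was called, while 12 of the 76 had an unadjusted p under 0.05. That percentage ran opposite to the share outside genes, at 0.942% in the library with 70.7% and 2.85% in the library with 21.2%. The 2 covariates could hardly be separated, so the lost calls decide nothing about the relation. The coefficients had larger errors in that fit, at -0.50 ± 0.22 for Dnajc6, -0.39 ± 0.17 for Hsph1, -0.31 ± 0.18 for Hsp90ab1 and -0.79 ± 0.17 for Hspd1 (SE), and 39 of the 43 genes kept their sign.

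The counts by role stand beside 22.8% of all genes that fell and 25.1% that rose. All 3 Hsp90 genes, all 3 Hsp110 genes and both mitochondrial chaperonin genes fell. Of the CCT ring 6 of 8 subunits fell, Cct3 (-0.18 ± 0.09) and Cct8 (-0.09 ± 0.07) not passing, and of 11 heat-inducible genes 8 fell. Of 8 chaperones of mitochondria 6 fell. Of 8 chaperones of the endoplasmic reticulum 2 fell (Hspa5 and Hsp90b1) and 2 rose (Dnajc1 and Dnajc3), near the shares of all genes. Hsp70 genes split into 4 that fell and 2 that rose, Dnajc genes into 11 and 2. In the pathway's other lists, 7 of 15 Hsp90 cochaperones fell and 2 rose, with Stip1, which links Hsp70 to Hsp90, at -0.43 ± 0.06 and Cdc37l1 at 0.58 ± 0.05. Of 12 Hsp70 cochaperones 7 fell, such as Bag6 (-0.38), and 1 rose, Bag3 (0.52). Of 5 heat shock factors and their regulator 2 fell (Hsf2 and Hsbp1) and 2 rose (Hsf1 and Hsf5), 6 of 16 endoplasmic reticulum partners, 4 of 14 prefoldin and CCT partners and 2 of 8 mitochondrial partners fell and none of these rose.

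**Figure D4:**
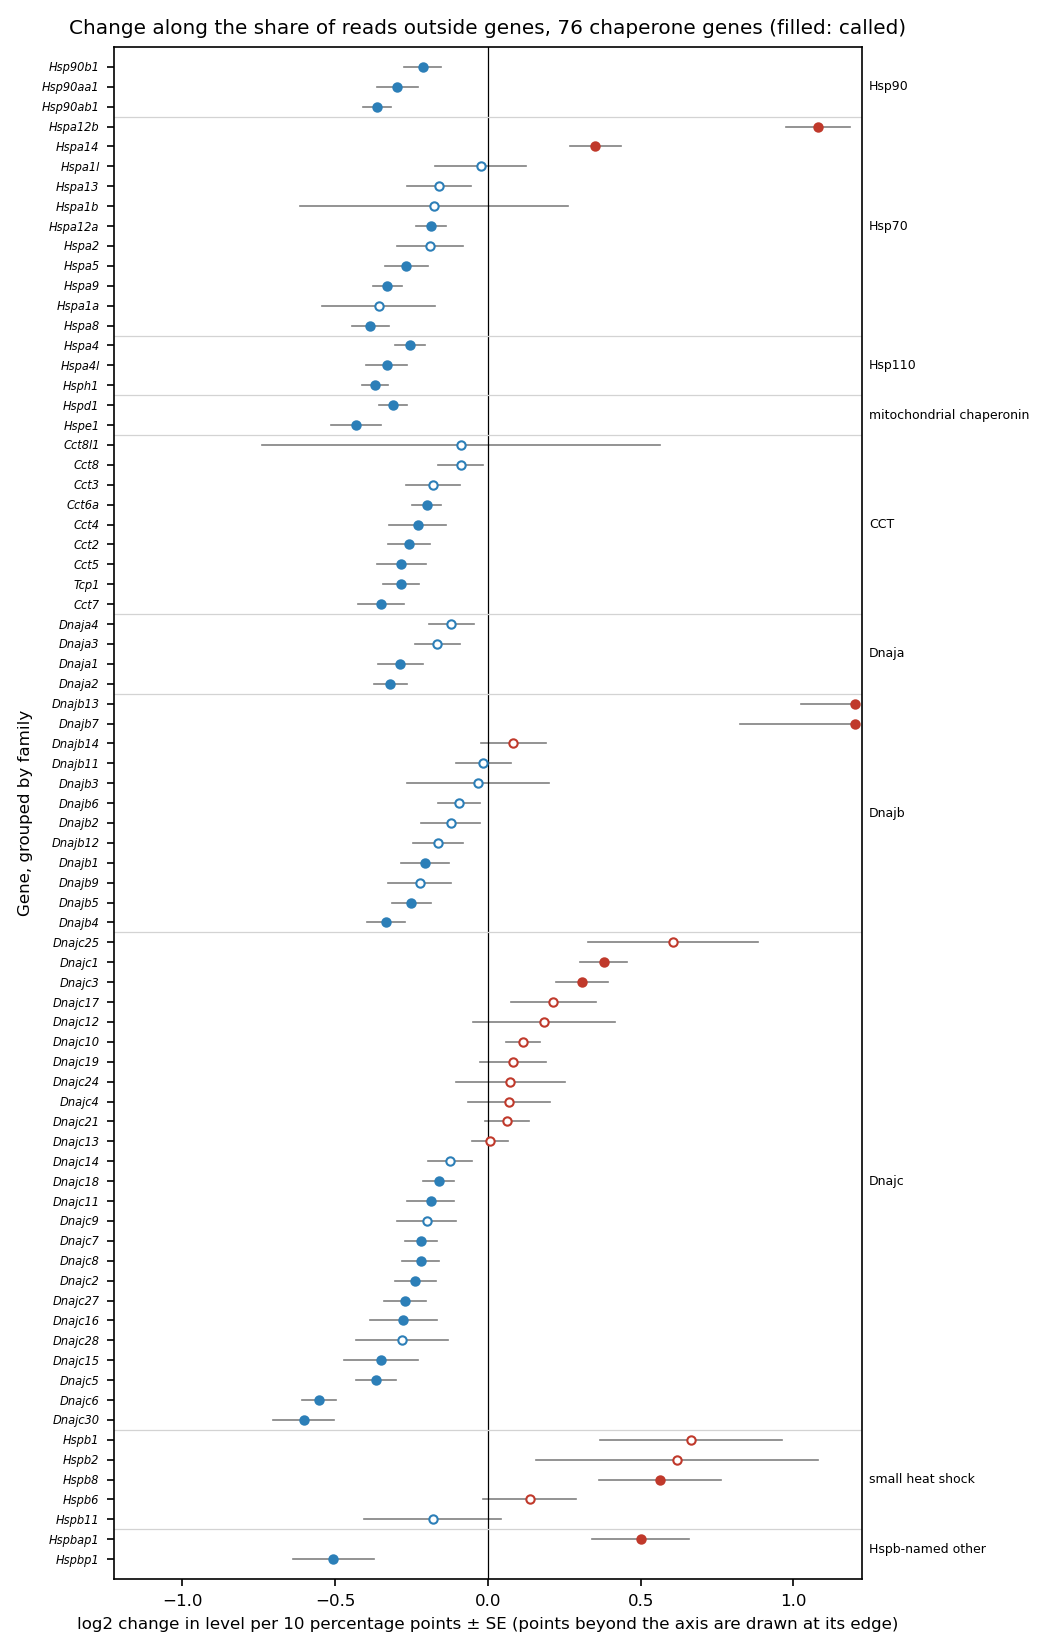
Change in level per 10 percentage points of reads outside genes (log2, with SE) for 76 chaperone genes by family. Filled points are the 43 called genes: 35 lie left of 0, including all Hsp90, Hsp110 and mitochondrial chaperonin genes, and 8 lie right of it.

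Among the genes that fell, Dnajc6, the auxilin, had the lowest p. It was at 72.1 CPM at the lowest, 215 at the median and 349 at the highest of the 9 nonescalating withdrawal libraries, at 27.3, 87.8, 182, 218 and 129 CPM in the saline withdrawal libraries, at 208 and 159 CPM in the escalating libraries, at 284, 289, 142 and 198 CPM in the nonescalating libraries and at 127, 208 and 155 CPM in the saline libraries. The lowest value belongs to saline withdrawal set A replicate 1, with 70.7% of reads outside genes, and the highest to nonescalating withdrawal set A replicate 2, with 30.4%. The coefficient was -0.55 ± 0.06 log2 units per 10 points (SE, adjusted p = 8.53e-08). Hsph1 had -0.37 ± 0.04, Hsp90ab1 -0.36 ± 0.05, Hspa9 -0.33 ± 0.05 and Hspd1 -0.31 ± 0.05, with adjusted p of 9.59e-06 or less. Hspa8 (-0.39 ± 0.06) and Dnajc5 (-0.37 ± 0.07), its partner on synaptic vesicles, fell as well.

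Hspa12b rose most clearly. It is a distant Hsp70 relative known from endothelial cells, and was at 9.19 CPM at the lowest, 26.8 at the median and 207 at the highest of the 9 nonescalating withdrawal libraries, at 251, 152, 89.5, 46.2 and 61.6 CPM in the saline withdrawal libraries, at 31.8 and 48.6 CPM in the escalating libraries, at 39.0, 7.55, 94.3 and 56.1 CPM in the nonescalating libraries and at 78.8, 13.02 and 66.5 CPM in the saline libraries. The 3 inputs held 4.18, 57.2 and 12.8 CPM. Its 6 lowest values came from libraries with 21.2% to 32.3% of reads outside genes, and its highest, 251 CPM, from the one with 70.7%. The coefficient was 1.08 ± 0.11 per 10 points (SE, adjusted p = 5.65e-08), and the median of the endothelial and mural markers was 0.999. Its relative Hspa12a, known from neurons, fell (-0.19 ± 0.05). The next genes to rise were Dnajc1 (0.38 ± 0.08), Hspa14 (0.35 ± 0.08), Dnajc3 (0.31 ± 0.09) and Hspbap1 (0.50 ± 0.16). Hspb8, Dnajb7 and Dnajb13 also rose. Dnajb13 had only 51 reads in all 26 libraries. Dnajb7 had 65 reads in the library with 70.7% outside genes and at most 13 in any other immunopurified library.

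**Figure D5:**
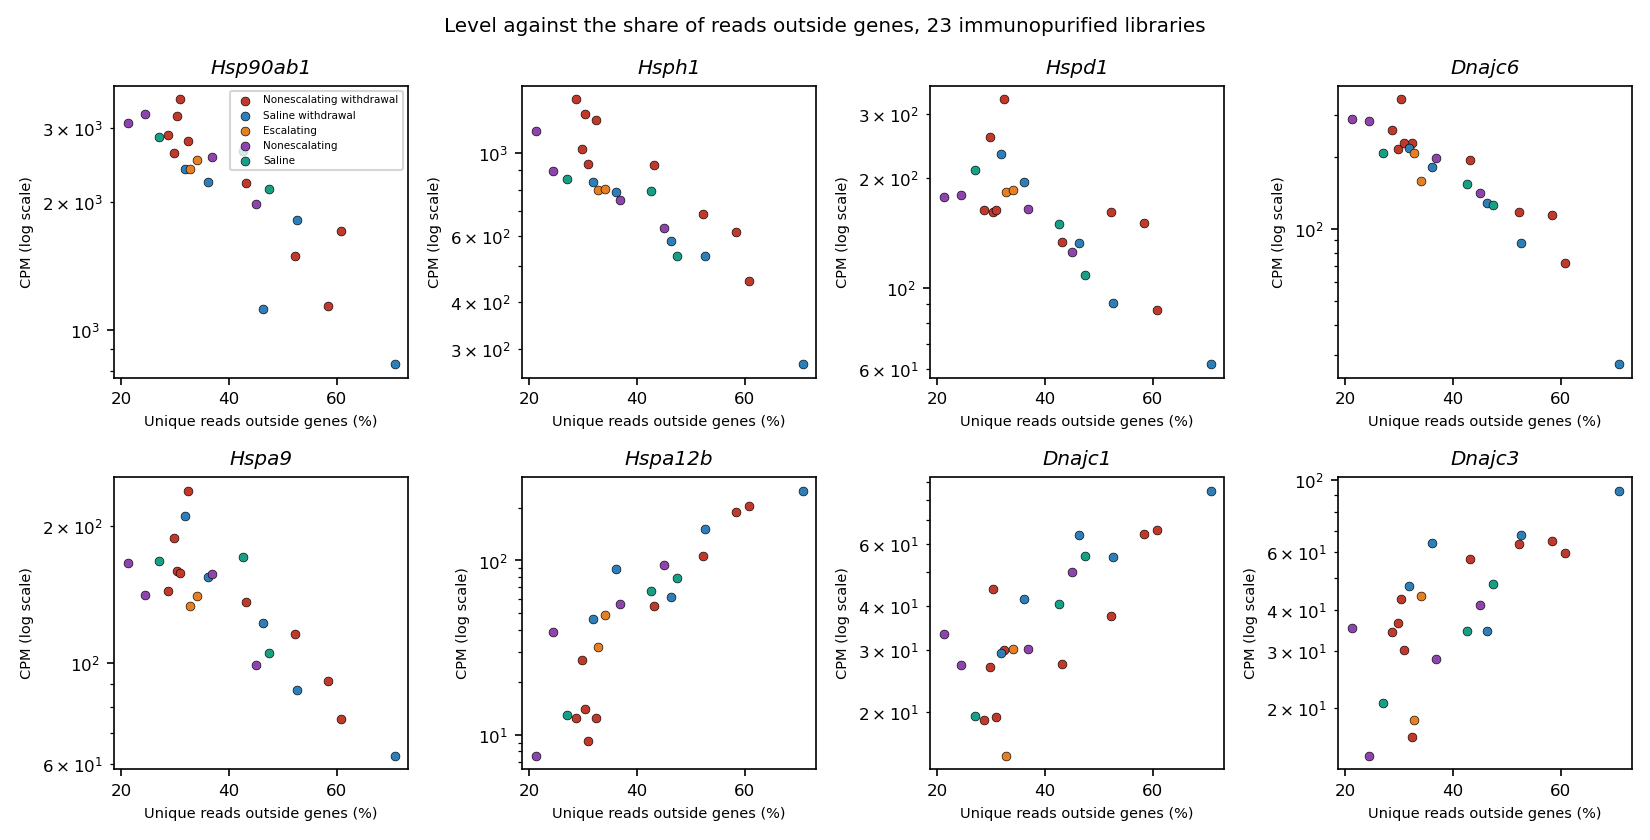
Level (CPM, log axis) against the percentage of unique reads outside genes, for 23 immunopurified libraries coloured by group. Hsp90ab1, Hsph1, Hspd1, Dnajc6 and Hspa9 are lower and Hspa12b, Dnajc1 and Dnajc3 higher in the library at 70.7% than in the library at 21.2%.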

How the data were processed

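The 26 tables hold raw counts of reads per gene symbol, as deposited. The submitters' processing notes name STAR 2.0.0e, HTSeq and mm10 for the alignment and counting done by the authors, and no source used here gives the annotation or strand setting. The tables use 2 gene lists (10 tables of 32531 and 16 of 32657 genes), joined by symbol for 31735 genes and by renamed symbol for 245, which hold 99.55% to 99.95% of the gene counts of each library. The 5 closing lines of each table (reads outside genes, ambiguous reads and the like) stayed out of library sizes and tests.

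Tests were run with edgeR 4.0.16 in R 4.3.3: TMM scaling, the filterByExpr low-count filter and the quasi-likelihood test, with Benjamini-Hochberg adjustment over all genes tested and calls at an adjusted p under 0.05. Immunopurified libraries and inputs of the 3 conditions that have an input were compared with terms for condition and library set, and the 23 immunopurified libraries with terms for group and library set. The share of reads outside genes, per 10 percentage points, was added for the last analysis. Fold changes are log2, with SE. CPM carry no correction for gene length, and CPM per kb divide by the exon length of the gene in GENCODE M21 (GRCm38), which also gave coordinates and exon overlaps. DESeq2 1.42.0, limma 3.58.1 voom, RLE scaling, no filter, other covariates, library subsets and a replicate block were alternatives. Saline withdrawal set A replicate 2 has a library number apart from the others and the gene list of the set B tables, and was counted in set A, or as a set of its own in an alternative. The titles of the 16 other set A libraries call each a copy of another number, which was not interpreted. The scripts were tested on simulated data. No pair among the 56 pairs of libraries of a group agreed within sampling noise (lowest chi-square per degree of freedom 11.8).

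The genes, the lists and the tests were chosen with earlier results of these data known. Genes named in a comparison were those called, the 3 with the lowest p in each direction (5 for reads outside genes), and a fixed set of 23 major chaperones by their levels. A gene at 0 counts in a library may still hold up to 3 counts, a limit that covers counting error only.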

Additional observations from a re-analysis of the deposited data

Results flagged for a closer look

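In 8 of 162 groups of 4 to 10 libraries, over 54 genes, the highest or lowest library stood apart from the others by Dixon's criterion, and chance gives about 1 in 20. Among nonescalating withdrawal libraries, Cct7 had 214 CPM in set A replicate 4, with the next library at 127 CPM. Dnajc9 had 84.4 CPM in set B replicate 5, with the next at 42.1 CPM, and Dnajb7 had 1.35 CPM in set B replicate 3, with the next at 0.405 CPM. Among nonescalating libraries, Dnajc2 had 38.7 CPM in replicate 3, with the next library above it at 64.0 CPM. Replicate 4 of that group was the highest for Dnajc25, at 2.76 CPM with the next at 0.503 CPM, and for Dnajb3, at 1.06 CPM with the next at 0.0997 CPM. Replicate 3 had 0.285 CPM of Hspb2 and the other libraries 0. Among saline withdrawal libraries, Dnajb3 had 0.825 CPM in set B replicate 2 and 0 in the others. The cause was not tested for any of these values.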

How the results depend on the processing

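Purified against input: 2 chaperones were called, DESeq2 called 9, and leaving out each library gave 0 to 3 (0 without saline withdrawal set B replicate 1 or 2, the saline withdrawal input or the nonescalating input). With the replicate number as a replicate block 0 of 76 were called, beside 0.396% of all genes. The block left the 6 group comparisons and the interaction at 0 calls and was not run for the relation to reads outside genes. Among immunopurified libraries, same-numbered ones did not deviate together at the median (r = -0.18 over 25 pairs, range -0.54 to 0.57, against -0.07 over 78 other pairs). Inputs were not part of these pairs, and whether a number marks a shared animal or day was not settled. Genes varying with reads outside genes numbered 43, but 7 in set B alone, 19 without the 5 libraries above 50% (an alternative chosen after seeing the data) and 0 with the percentage of ambiguous reads as a second covariate. The last fit could hardly separate its 2 covariates, which run opposite to each other across the immunopurified libraries. Of the 43, all kept their sign under RLE scaling, DESeq2 and set A alone, and 39 with ambiguous reads as covariate. In the 6 group comparisons and the interaction, 0 chaperones were called under every alternative run. The share of all genes called under those alternatives is not given here.

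Of the named values, 6 changed direction under an alternative. Without a term for library set, Dnajc2 was at 0.10 in saline withdrawal against saline and at 0.22 in nonescalating withdrawal against nonescalating. Without the libraries above 50%, Hspa14 was at -0.11 in saline withdrawal against saline and the interaction of Hspb2 at -0.68. Dnajb9 in escalating against saline ranged from -0.44 to 1.61 when each library was left out. The difference in reads outside genes between escalating and nonescalating libraries, 1.56 percentage points, ranged from -1.98 to 5.96. For all of these the cause was not tested.

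Depth and library numbers limit what could be seen: the median SE of a chaperone's log2 fold change was 0.31 in nonescalating withdrawal against saline withdrawal and 0.49 in escalating against saline, and 3 inputs, of 3 conditions, decide every value against input. Small heat shock genes and several Dnajb genes had few reads, so their fold changes rest on few molecules.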
